A study of Mus musculus with 96 samples.

Results

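Small nucleolar RNAs (snoRNAs) and small Cajal body RNAs were followed through 8 ways of keeping the same mouse livers. The set comprised every gene of the count table whose mouse symbol starts with Snora (H/ACA class), Snord (C/D class) or Scarna (Cajal body class) and was chosen by its raw counts, which had to sum to 500 or more over all 96 libraries. Of 150 genes with such symbols among 47373 genes in the table, 32 reached that sum: 16 of 42 H/ACA, 11 of 99 C/D and 5 of 9 Cajal body RNAs. Another 68 had no count in any library and 50 had counts below 500. The sum ran over every state, so an RNA could reach it through one state alone. Just inside were Snord32a with 540 counts and Snord98 with 570 counts, and just outside were Snord83b with 489 counts and Snord43 with 470 counts.

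The livers came from 12 male B6C3F1 mice of 10 to 11 weeks, 6 given phenobarbital (PB) at 600 ppm in drinking water for 7 days and 6 controls (Con) at 0 ppm. PB is a long-used activator of hepatic drug metabolism. Every portion was cut from liver that had first been frozen, so the fixed portions had also been frozen. Portions were kept in 70% ethanol for 3 months (OH), in 10% buffered formalin for 18 hours and then in 70% ethanol for 3 months (18F), for all 3 months in that formalin (3F), or frozen throughout (FR), and the first 3 were embedded in paraffin. Material from the 3F blocks was also taken through 4 heated treatments in a test of removing formalin modifications. In TAE, isolated RNA was warmed for 30 minutes at 70 °C in a Tris-acetate buffer. In Heat, the incubation was 18 hours at 55 °C without a catalyst. In CatA and CatP an organocatalyst was added to that incubation, and RNA was isolated with the AllPrep kit in Heat and CatA and with the PureLink kit in CatP. FR RNA was isolated with RNAzol RT and a MinElute column, while the protocol text at hand does not name the kits for OH, 18F, 3F and TAE, so kit and state cannot be told apart in several comparisons. There were 12 libraries per state, 6 from PB and 6 from Con mice.

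Box C/D RNAs pair with a target RNA and place a 2′-O-methyl group on it through the methyltransferase fibrillarin, while box H/ACA RNAs guide the conversion of uridine to pseudouridine through dyskerin. Most targets are ribosomal RNA in the nucleolus, and a few snoRNAs are needed for cleavage of the ribosomal precursor instead. Small Cajal body RNAs carry the same boxes but direct modification of spliceosomal snRNAs in Cajal bodies. In mammals most of them are cut from introns of host genes, many of which encode ribosomal or translation proteins, and they are short, structured and bound tightly by protein.

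The classes differ in their sequence boxes. Capitals mark the C box TGATGA within the first 30 bases and the D box CTGA within the last 20 bases for the C/D RNAs, and the triplet ACA within the last 10 bases for the H/ACA RNAs. All are GENCODE M21 gene models read from GRCm38 and printed 5′ to 3′ as DNA letters of the gene's own strand. The first 3 RNAs are among those with large rises after 3 months in formalin, the next 3 are the most abundant in frozen liver, and Snord98 lay below its frozen level.
Snord16a: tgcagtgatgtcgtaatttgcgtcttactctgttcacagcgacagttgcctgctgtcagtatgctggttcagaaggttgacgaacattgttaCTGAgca
Snora41: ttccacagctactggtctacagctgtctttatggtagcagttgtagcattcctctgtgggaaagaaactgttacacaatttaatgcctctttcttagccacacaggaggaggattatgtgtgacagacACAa
Snora21: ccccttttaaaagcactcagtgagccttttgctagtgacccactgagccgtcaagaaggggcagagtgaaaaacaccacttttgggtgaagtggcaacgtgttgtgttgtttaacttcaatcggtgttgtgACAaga
Snord17: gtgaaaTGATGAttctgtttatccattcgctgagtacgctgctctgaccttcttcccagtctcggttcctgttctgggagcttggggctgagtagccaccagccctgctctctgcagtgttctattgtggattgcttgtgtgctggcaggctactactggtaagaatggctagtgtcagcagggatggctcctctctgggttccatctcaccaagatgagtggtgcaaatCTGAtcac
Snora23: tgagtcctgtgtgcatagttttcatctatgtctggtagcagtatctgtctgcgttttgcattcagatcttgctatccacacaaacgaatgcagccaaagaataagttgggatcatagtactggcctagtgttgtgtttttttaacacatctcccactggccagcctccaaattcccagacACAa
Snora73b: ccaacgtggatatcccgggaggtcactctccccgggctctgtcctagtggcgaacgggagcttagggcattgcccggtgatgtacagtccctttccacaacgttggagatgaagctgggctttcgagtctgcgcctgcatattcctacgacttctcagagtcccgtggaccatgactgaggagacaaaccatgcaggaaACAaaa
Snord98: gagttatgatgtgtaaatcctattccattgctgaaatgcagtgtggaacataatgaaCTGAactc
These genes lie at chr9:64175423-64175521 (plus strand, Snord16a, overlapping an exon of Rpl4), chr1:63179004-63179135 (plus, Snora41, in an intron of Eef1b2), chr11:97781639-97781775 (minus, Snora21, in an intron of Rpl23), chr2:144265979-144266216 (minus, Snord17, in an intron of Snx5), chr7:110046364-110046547 (plus, Snora23, in an intron of Ipo7), chr4:132352322-132352526 (minus, Snora73b, in an intron of Rcc1) and chr10:62765576-62765640 (minus, Snord98, in an intron of Ccar1). The ACA triplet was found in 16 of 16 H/ACA members, against 95.2% of all 42 Snora genes. The D box was found in 11 of 11 C/D members, against 98.0% of all 99 Snord genes, and the C box in 7 of 11, against 72.7%. Snord16a and Snord98 carry no exact TGATGA in the window searched, which says only that those letters are not there.

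The 32 RNAs were 65 to 414 nt long, with a median of 131 nt. By annotation 20 lie in an intron of a host gene on the same strand, 5 overlap an exon of their host and 7 have no host. Of the members 21.9% overlap an exon of another gene on either strand, against 73.5% of the 68 such genes without a count. A total of 13 members share runs of 25 bases with other small RNA genes, which makes their counts uncertain. Snora73b, the U17 RNA of early precursor cleavage known from its yeast relative snR30, is 96.6% identical to Snora73a, which had 96 counts in all. Sequence runs were also shared by 83.6% of Scarna17 and 60.4% of Snora30. Snora73b and Snora23 also have an annotated gene on the opposite strand, and whether the authors' counting used strand is not stated.

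Library totals ran from 1264563 to 18442730 counts, and from 1264563 to 10217453 counts in 3F against 14527636 to 18442730 counts in FR. The shallowest was the 3F library of Con mouse 8A, and the next lowest of all held 6257294 counts. The mitochondrial share of counts had a median of 9.86% in 3F and 2.44% in FR. Among the 3F libraries, that of PB mouse 18B had the highest level for 28 of the 32 RNAs, and the 32 together made up 0.501% of its counts. The hepatocyte marker sum over 6 genes had a median of 70810 CPM (counts scaled to a common library size by the TMM method over all 96 libraries) in 3F and 106892 CPM in FR. Kupffer cell and other leukocyte markers (5 genes) summed to a median of 236 CPM in 3F and 346 CPM in FR, and endothelial markers (3 genes) to 243 CPM in 3F and 311 CPM in FR. Stellate cell and fibroblast markers (4 genes) had 237 CPM in 3F and 276 CPM in FR. Higher in 3F were bile duct markers (3 genes), at 13.1 CPM against 8.56 CPM in FR, and erythroid markers (2 genes), at 215 CPM against 180 CPM. None of these genes was at 0. These features moved with the states, and their part in the results was not tested.

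A few RNAs dominated the counts. Snora73b held 29.2% of the 701439 member counts and the 6 most abundant RNAs held 85.1%, which is a share of reads and not a level per length. In FR libraries Snord17, a C/D guide of large-subunit rRNA known from human cells, took 33.9% of the member level, and Snora73b took 27.6%. In 3F libraries Snora73b took 22.5% and Snora23, an H/ACA guide, took 19.8%. Members with a mean of at least 1 CPM numbered 17 in OH, 24 in 18F, 30 in 3F, 26 in TAE, 18 in Heat, 18 in CatA, 19 in CatP and 18 in FR.

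The classes differed in how their summed level stood between long formalin and freezing. H/ACA RNAs summed to a median of 578 CPM in 3F (lowest 230, highest 3126) and 312 CPM in FR (lowest 204, highest 386), with 11 of 12 mice higher in 3F and a median paired log2 ratio of 1.02 (SD 1.04). C/D RNAs summed to a median of 255 CPM in 3F (82.4 to 1422) and 240 CPM in FR (193 to 298), with a median log2 ratio of 0.17 (SD 1.08) and 7 of 12 mice higher, so this sum did not separate the states. Cajal body RNAs summed to a median of 316 CPM in 3F (204 to 781) and 94.2 CPM in FR (81.5 to 113). The Cajal body ranges did not overlap, all 12 mice were higher in 3F, and the median log2 ratio was 1.68 (SD 0.54). In bulk tissue, fewer cells of a type and less RNA per cell cannot be told apart. These sums are a description with no test, and each is led by its most abundant members.

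**Figure D1:**
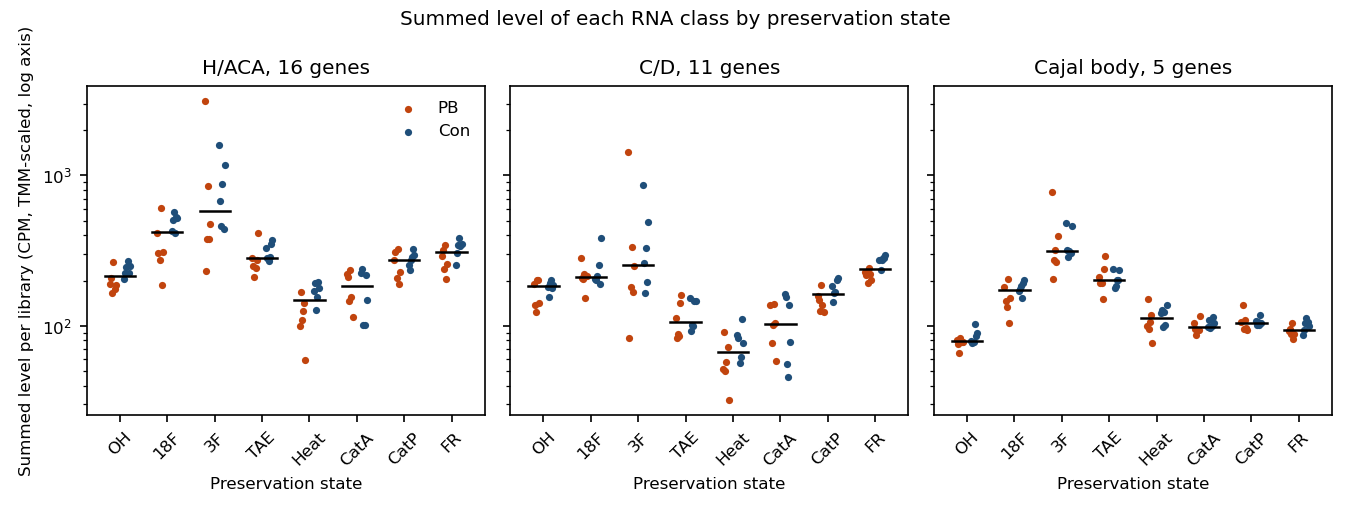
Summed level of the 16 H/ACA, 11 C/D and 5 Cajal body RNAs in each of the 96 libraries, in TMM-scaled CPM on a log axis, by preservation state. Each point is 1 library, PB left of Con in each state, and the bar is the median of 12 libraries. The Cajal body sum in 3F lies above every FR library, while the C/D sums of the same states overlap.

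The other states had their own order. In 18F the median log2 ratio to FR was 0.53 for H/ACA (10 of 12 mice higher), -0.15 for C/D (4 higher) and 0.85 for Cajal body RNAs (12 higher). In OH it was -0.49, -0.55 and -0.24 for the 3 classes in that order, and no mouse was higher in any of them. In TAE it was -0.07 for H/ACA (5 higher), -1.08 for C/D (0 higher) and 1.07 for Cajal body RNAs (12 higher). Heat gave -1.06, -1.94 and 0.12, CatA gave -0.62, -1.06 and 0.08, and CatP gave -0.14, -0.60 and 0.12. The C/D share of the member level averaged 21.9% in 3F and 18.6% in TAE, against 38.2% in FR, and the Cajal body share averaged 27.1% in 3F and 35.6% in Heat, against 15% in FR. Snord17 alone took 33.9% of the member level in FR, so the C/D sum there was mostly this RNA. Single C/D RNAs split otherwise in the edgeR fit without a low-count filter. Of the 11 log2 fold changes over FR, 8 were above 0 and 3 below in 3F, 7 and 4 in 18F, and 9 and 2 in TAE.

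Formalin for 3 months was set against freezing to ask how prolonged fixation changes measured RNA levels. In edgeR's quasi-likelihood test with mouse as a block, 25 of 28 tested members rose in 3F, where 31.6% of all 13477 genes tested were called higher, and 1 fell, where 34.5% of all genes were called lower. The median log2 fold change was 2.37 over the 28 members and -0.02 over all genes tested. Of the 28, 13 met the level of the low-count filter in all 12 libraries of both states and 11 in all 12 of 3F alone, so those 11 had to be high there. Over all 32 members with no filter, 29 log2 fold changes were above 0 and the median was 2.16, against -0.16 over all genes. Rises were called for 14 of 16 H/ACA RNAs, 7 of 8 tested C/D RNAs and 4 of 4 tested Cajal body RNAs, with class medians of 2.05, 3.09 and 2.15.

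The largest rises belonged to RNAs that were scarce in frozen liver. Of those named here, Snord16a, Snora41 and Snora21 reached the filter level in all 12 libraries of 3F but not of FR. They entered the test through 3F and had to be high there, so the filter partly sets this link. Snord16a, a C/D guide hosted by the ribosomal protein gene Rpl4, had a lowest, median and highest level of 4.43, 9.27 and 58.5 CPM in 3F, against 0.213, 0.549 and 0.996 CPM in FR. Its ranges did not overlap, and the log2 fold change was 4.41 ± 0.28 (SE, n = 12 per state, edgeR adjusted p = 2.7e-13). Snora41, an H/ACA guide hosted by the elongation factor gene Eef1b2, had 3.06, 9.17 and 38.6 CPM in 3F, against 0.460, 0.705 and 1.06 CPM in FR. All 3F libraries lay above all FR libraries, with a log2 fold change of 3.81 ± 0.22 (edgeR adjusted p = 8.94e-14). Snord13, or U13, which has no host gene and in human cells guides acetylation of small-subunit rRNA, had 11.0, 29.2 and 127 CPM in 3F, against 1.21, 2.49 and 4.11 CPM in FR. Its log2 fold change was 3.78 ± 0.21 without overlap (edgeR adjusted p = 2.19e-14). Ranges did not overlap for 17 of the 28 tested members, against 13.7% of all genes tested, and for 18 of all 32. Snora21, an H/ACA guide of rRNA, stood at 7.25, 16 and 68.1 CPM in 3F and 0.725, 1.74 and 2.42 CPM in FR, also without overlap.

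**Figure D2:**
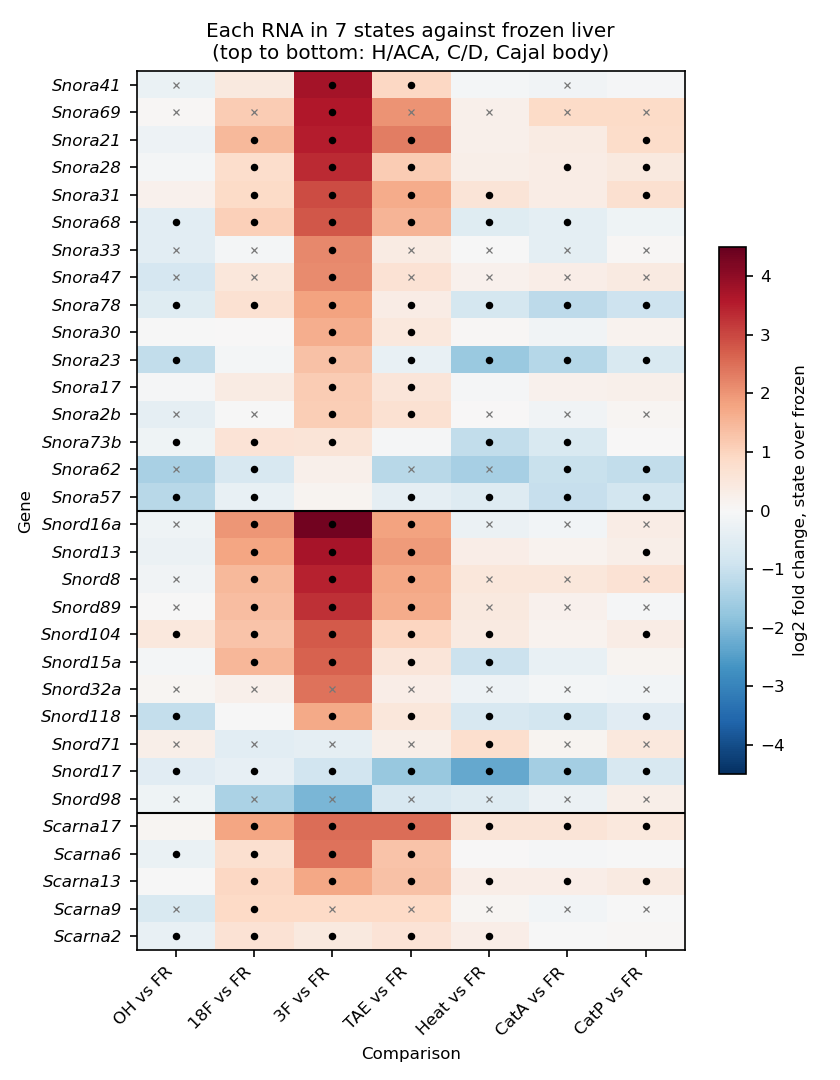
Log2 fold change of each of the 32 RNAs in 7 states over frozen liver, from the edgeR fit without a filter so that every RNA is shown. Dots mark RNAs called at an adjusted p under 0.05 in the filtered fit and crosses mark RNAs that did not pass its low-count filter. The 3F column holds 29 values above 0, while the Heat, CatA and CatP columns are pale except for a few falls such as Snord17 and Snora23.

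The 3 most abundant snoRNAs moved less, and their values varied with 2 mice. Snora23 had 78.6, 186 and 1186 CPM in 3F, against 61.3, 95.4 and 132 CPM in FR, and 11 of 12 mice were higher in 3F (log2 fold change 1.39 ± 0.23, edgeR adjusted p = 7.13e-06). Its ranges overlapped, and the second highest 3F library stood at 680 CPM. Snora73b had 95.1, 265 and 1322 CPM in 3F, against 115, 185 and 210 CPM in FR, with 8 of 12 mice higher. Its log2 fold change was 0.64 ± 0.22 (edgeR adjusted p = 0.0117), and without mice 18B and 8A it was 0.30 and was not called (edgeR adjusted p = 0.0766). Snord17 had 26.2, 102 and 703 CPM in 3F, against 171, 211 and 264 CPM in FR. It was lower in 3F in 10 of 12 mice and higher in 18B and 8A, with a log2 fold change of -0.81 ± 0.25 (edgeR adjusted p = 0.0063). Without those mice the value was -1.23 ± 0.16, and without the mouse block it was -0.21 and not called (edgeR adjusted p = 0.637).

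Snord17 was thus the only one of the 28 tested members called lower in 3F. Snord98, a short C/D RNA that did not pass the filter, had 0, 0.113 and 0.681 CPM in 3F, against 0.249, 0.628 and 1.17 CPM in FR, with a log2 fold change of -2.06 from the fit without a filter. Its levels overlapped between the states and amounted to a few counts per library. Snora57 and Snora62, both H/ACA RNAs, were tested and not called, with log2 fold changes of 0.17 and 0.29. The U8 RNA Snord118, needed for large-subunit rRNA maturation in Xenopus, had 17.4, 33.5 and 157 CPM in 3F, against 7.75, 12.1 and 16.7 CPM in FR, a log2 fold change of 1.76 ± 0.18 without overlap.

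The Cajal body class, whose summed level varied least among mice, rose in every tested member. Scarna6, which in human cells guides modification of U5 snRNA, had 99.8, 171 and 484 CPM in 3F, against 29.3, 37.1 and 41.5 CPM in FR. Every 3F library lay above every FR library, and the log2 fold change was 2.5 ± 0.14 (edgeR adjusted p = 2.54e-14). Scarna13, an H/ACA-type guide for spliceosomal snRNAs, had 52.2, 74.9 and 173 CPM in 3F, against 16.7, 22.5 and 32 CPM in FR, and rose by a log2 fold change of 1.80 ± 0.11 without overlap. Scarna17 had 4.49, 7.43 and 11.0 CPM in 3F, against 0.857, 1.2 and 2.18 CPM in FR (log2 fold change 2.56 ± 0.15, no overlap). It reached the filter level in all 12 libraries of 3F but not of FR, so it had to be high in 3F. Scarna2, the longest member and a guide for U2 snRNA, had 31.4, 47.3 and 114 CPM in 3F, against 29.7, 36.2 and 40.2 CPM in FR, and its log2 fold change of 0.50 ± 0.10 was called with overlapping ranges and 11 of 12 mice higher.

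**Figure D3:**
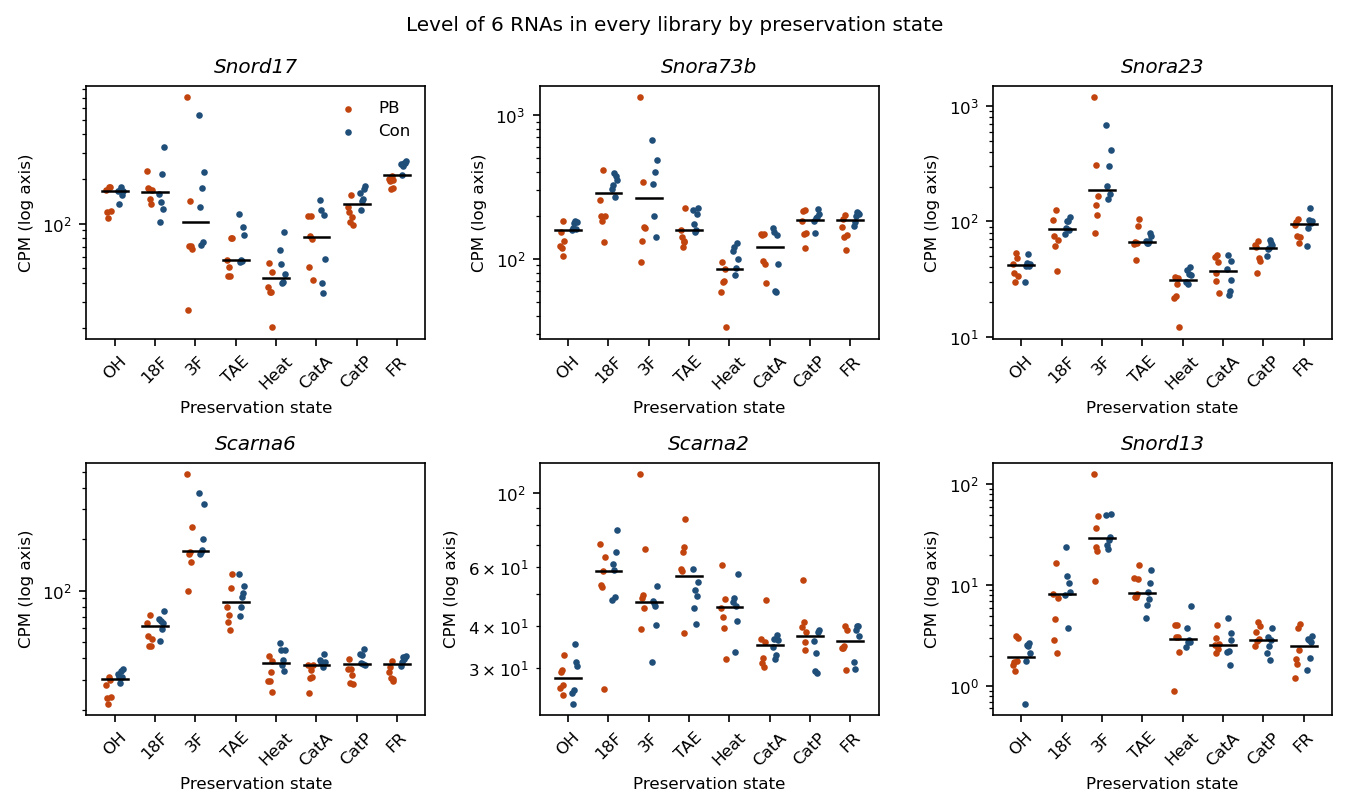
Level of 6 RNAs in each of the 96 libraries, in TMM-scaled CPM on a log axis, by preservation state, with PB left of Con and the bar at the median of 12 libraries. Snord13 and Scarna6 in 3F lie above every FR library, Snord17 in 3F spreads from 26.2 to 703 CPM, and the Scarna2 medians lie between 28.0 and 58.7 CPM.

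The study chose 18 hours as a standard length of fixation. In 18F, 17 of 25 tested members were called higher than in FR, against 28.1% of all genes tested, and 3 were called lower, against 29.7% (edgeR). Of the 25, 3 met the filter level through 18F alone. Over all 32 with no filter, 23 log2 fold changes were above 0. Scarna6 had 47.2, 62.0 and 76.2 CPM in 18F, against 29.3, 37.1 and 41.5 CPM in FR, and was the only member without overlap, where 3.5% of all genes did not overlap. Its log2 fold change was 0.72 ± 0.04 (edgeR adjusted p = 5.21e-15). Snord16a rose by a log2 fold change of 1.98 ± 0.27 and Snora73b by 0.62 ± 0.06, while Snord17 fell by 0.38 ± 0.08 on the log2 scale and Snora23 was not called at -0.11 ± 0.06.

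Longer fixation was set against shorter directly. In 3F, 24 of 27 tested members were higher than in 18F and none was lower, against 25.8% and 28.1% of all genes called in those directions (edgeR). Of the 27, 15 met the level of the low-count filter in all libraries of both states and 8 in those of 3F alone, so those 8 had to be high in 3F. Over all 32 members with no filter, 28 log2 fold changes were above 0 and the median was 1.61, against -0.12 over all genes. With library totals 22 were higher and 1 lower. Snora41 had a median of 9.17 CPM in 3F and 1.09 CPM in 18F, with a log2 fold change of 3.39, and Scarna6 had a log2 fold change of 1.79 without overlap. Ranges did not overlap for 4 members, against 3.89% of all genes. The 3 members not called were Snora73b at 0.02, Scarna2 at -0.13 and Snord17 at -0.42. Without mice 18B and 8A, Snord17 was called lower in 3F, at -0.81 ± 0.18 (edgeR adjusted p = 0.000807). Snora73b stood at -0.30 ± 0.15 without them and was not called. Set against ethanol, 18F had 18 of 21 tested members higher and none lower, against 29.4% and 29.3% of all genes, with 1 not overlapping, against 3.33%. Of those 21, 1 met the filter through 18F alone, and with no filter 30 of 32 log2 fold changes were above 0.

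Ethanol fixation without formalin went the other way. In OH, 9 of 19 tested members were lower than in FR, against 27.1% of all genes tested, and 1 was higher, against 25.9% (edgeR). Of the 19, 1 met the filter level through OH alone and 1 through FR alone. Snora23 had 29.8, 41.9 and 53.6 CPM in OH, against 61.3, 95.4 and 132 CPM in FR. It was the only member whose ranges did not overlap, where 1.75% of all genes did not, and it fell by 1.11 ± 0.05 on the log2 scale in 12 of 12 mice (edgeR adjusted p = 2.14e-16). Snord118 fell by 1.06 ± 0.08, Snord17 by 0.49 ± 0.04, Scarna2 by 0.31 ± 0.04 and Scarna6 by 0.30 ± 0.04 on the log2 scale. Snord104 was the member called higher, with a log2 fold change of 0.50.

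The demodification treatments were set against untreated 3F material. After TAE, 23 of 28 tested members were lower than in 3F and none was higher, against 17.5% and 17% of all genes tested (edgeR). Ranges did not overlap for 3 of the 28, against 0.286% of all genes. Of the 28, 5 met the filter level through 3F alone, so those 5 had to be high in 3F. Over all 32 members with no filter, 29 log2 fold changes were below 0 and the median was -1.33, against 0.10 over all genes. Snord16a had 0.638, 1.64 and 3.96 CPM in TAE, against 4.43, 9.27 and 58.5 CPM in 3F, a log2 fold change of -2.54 ± 0.27. Snora41 had a log2 fold change of -2.88 ± 0.19. The 5 members not called were Scarna17 at -0.02, Scarna9 at -0.05, Scarna2 at 0.11, Snora2b at -0.46 and Snora17 at -0.69. So 13 of 15 H/ACA and 8 of 8 C/D RNAs fell, and 2 of 5 Cajal body RNAs.

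Most members were also lower after the long incubations. Against 3F, 25 of 26 tested members were lower in Heat, 27 of 27 in CatA and 26 of 27 in CatP, against 27.1%, 28.2% and 31.8% of all genes called lower (edgeR). None was higher, against 28.8%, 29.6% and 34.9%. Ranges did not overlap for 13, 18 and 18 members, against 2.69%, 3.63% and 9.46% of all genes. Of those tested, 10, 8 and 5 met the level of the low-count filter through 3F alone. With no filter, 30, 30 and 29 of all 32 log2 fold changes were below 0. Snord16a had log2 fold changes of -4.72 ± 0.23 in Heat, -4.59 ± 0.22 in CatA and -4.03 ± 0.26 in CatP, and Scarna6 had -2.48 ± 0.16, -2.54 ± 0.11 and -2.49 ± 0.14. Scarna2 was the member not called in Heat, at -0.18 ± 0.12, and Snord17 the member not called in CatP, at 0.12 ± 0.24. These comparisons share the 3F libraries, including those of 18B and 8A. Without both mice the counts called were 22 in TAE, 24 in Heat, 25 in CatA and 26 in CatP. The 26 in CatP were not all falls. Snord17 was among them and was called higher there, at 0.53 ± 0.15 (edgeR adjusted p = 0.00398). Snora73b lost its call in CatP, at -0.28 ± 0.16.

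Treated material was also set against frozen liver, which shares no 3F library. TAE had 20 of 24 tested members higher and 3 lower than FR, against 36.7% and 32.3% of all genes (edgeR), with 9 not overlapping, against 11.9%. Of the 24, 7 met the filter level through TAE alone and none through FR alone, so those 7 had to be high in TAE. Over all 32 members with no filter, 26 log2 fold changes were above 0 and the median was 0.66, against 0.05 over all genes. Scarna17 had 6.07, 7.36 and 11.5 CPM in TAE, against 0.857, 1.2 and 2.18 CPM in FR, and a log2 fold change of 2.55 ± 0.12 without overlap. Snora21 had a log2 fold change of 2.32 ± 0.13 and Snord13 one of 1.95 ± 0.13, both without overlap. Snora21 was among the 7 that had to be high in TAE. Snord17 had 44.5, 57.2 and 117 CPM in TAE, against 171, 211 and 264 CPM in FR, and fell by 1.70 ± 0.09 on the log2 scale without overlap.

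After Heat, CatA and CatP the rises and falls were nearer in number. Heat had 6 higher and 8 lower of 21 tested, against 33.3% and 33.4% of all genes. CatA had 3 higher and 8 lower of 20, against 34.6% and 28.6%. CatP had 7 higher and 6 lower of 21, against 37.8% and 33.4%. The Heat and CatP counts lay near these shares, while CatA had fewer higher members than its share of genes. Of those tested, 2, 2 and 4 met the filter level through Heat, CatA and CatP alone, so those had to be high there. Through FR alone 2, 0 and 0 met it. With no filter, 17, 13 and 20 of all 32 log2 fold changes were above 0. With library totals in place of TMM the splits were 10 higher and 6 lower in Heat, 9 and 7 in CatA, and 13 and 6 in CatP. That scaling moved the median of all genes to 0.27, 0.24 and 0.29 on the log2 scale.

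Snord17 and Snora23 fell in all 3. Snord17 had 20.1, 43.1 and 87.4 CPM in Heat, 34.0, 80.9 and 144 CPM in CatA, and 97.4, 135 and 179 CPM in CatP, against 171, 211 and 264 CPM in FR. The log2 fold changes were -2.30 ± 0.10 in Heat, -1.49 ± 0.15 in CatA and -0.69 ± 0.04 in CatP, and Heat and CatA did not overlap FR. Snora23 had 12, 31.1 and 39.8 CPM in Heat, 23.1, 37.1 and 51.4 CPM in CatA, and 35.7, 59.1 and 68.7 CPM in CatP, against 61.3, 95.4 and 132 CPM in FR. Its log2 fold changes were -1.65 ± 0.10, -1.27 ± 0.12 and -0.67 ± 0.05, again without overlap in Heat and CatA. Ranges did not overlap for 2 members in Heat, 2 in CatA and none in CatP, against 9.99%, 6.68% and 11.2% of all genes. Scarna6, in contrast, was not called in any of them, with log2 fold changes of 0.01, -0.01 and 0.02 and medians of 37.3, 36.6 and 36.9 CPM, against 37.1 CPM in FR.

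Fewer members were called between the long incubations than against 3F. CatA against Heat, which share a kit, had 4 of 19 members higher and 1 lower, against 8.12% and 5.9% of all genes tested, or 2 higher and 1 lower with library totals. Of these 19, 1 met the filter level through CatA alone. Snord17 had a log2 fold change of 0.77 ± 0.13 (10 of 12 mice higher) and Scarna2 one of -0.34 ± 0.08 (11 of 12 lower). CatP against CatA, which differ in kit, had 8 of 19 members higher and none lower, against 17.4% and 19.6% of all genes. Of these 19, 2 met the filter level through CatP alone. Snord17 had a log2 fold change of 0.81 ± 0.12 and Snora73b one of 0.72 ± 0.10, each higher in 11 of 12 mice. Without the mouse block, 0 members were called in the first of these comparisons and 2 in the second.

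After long formalin the small RNAs lay above most of their host genes in fold change. In 3F against FR, 23 members had a tested host, and their median log2 fold change was 2.44 (fit without a filter). The hosts had a median of 0.03 in the filtered fit, and 9 were higher, 8 lower and 6 not called. The pairs thus set 2 fits side by side, whose medians over all genes were -0.16 without and -0.02 with the filter. Over a wider list of 63 tested snoRNA host genes, 21 rose and 26 fell, where 31.6% of all genes tested were called higher and 34.5% lower. The small RNA lay above its host in 20 of 23 pairs. Snord16a stood at 4.36 and Rpl4 at 0.03, Scarna6 at 2.44 and the autophagy gene Atg16l1 at -0.34, and Snora41 at 3.76 and Eef1b2 at 0.25. Snord17 stood at -0.88 and Snx5, a sorting nexin, at -0.03. Over the 23 pairs the Spearman rho was 0.29 in 3F, and it was 0.72 in Heat and 0.68 in CatA against FR. It was lower in the other states against FR, at 0.33 in CatP, 0.32 in TAE, 0.09 in 18F and 0.05 in OH. Each is a description over pairs measured in the same libraries.

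**Figure D4:**
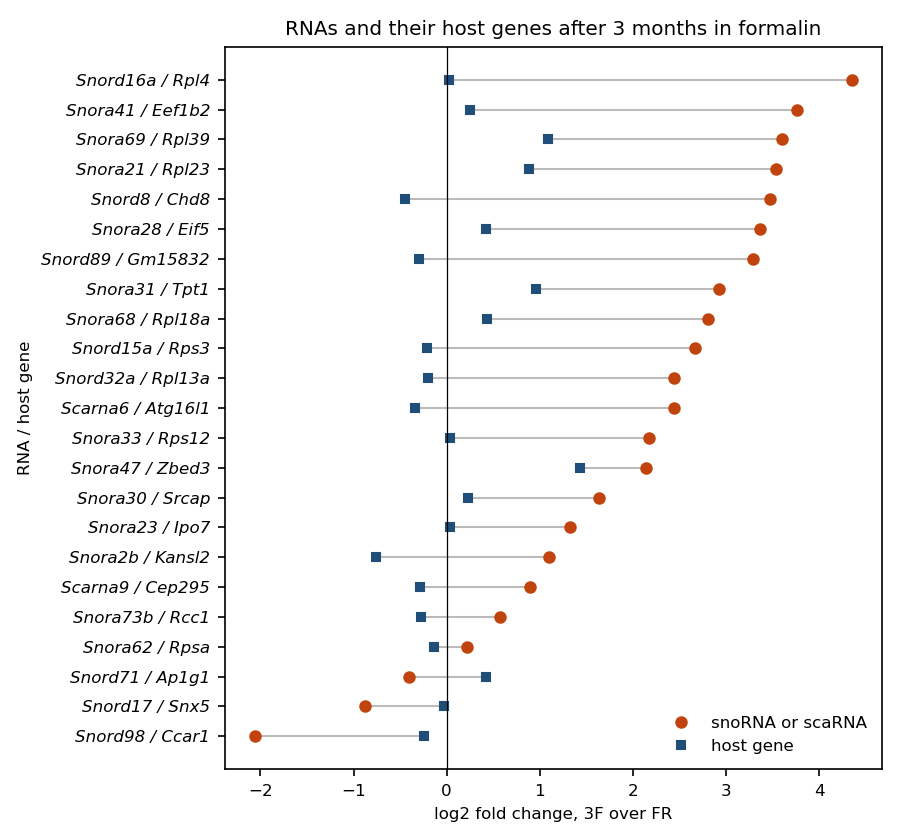
Log2 fold change in 3F over FR of each small RNA (circles, fit without a filter) and of its host gene (squares, filtered fit). Each line is 1 pair, sorted by the small RNA. In 20 of the 23 pairs the circle lies right of the square, and the circles run up to 4.36.

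Length and base content were weakly related to the change. Over the 32 members the Spearman rho of the 3F over FR log2 fold change was -0.28 with length, -0.20 with GC content and -0.30 with the frozen level, as descriptions over genes that share libraries. The median log2 fold change was 2.64 for the 10 members shorter than 120 nt, 2.16 for the 16 from 120 to 150 nt and 0.95 for the 6 longer ones. Those 6 were also the 6 most abundant in FR, so length and frozen level cannot be told apart in that group. Other small RNAs rose as well. All 9 tested RNAs of a list of other small noncoding RNAs rose in 3F, where 31.6% of all genes were called higher, with a median log2 fold change of 2.09. Among them were the Y RNAs Rny1 at 3.94 and Rny3 at 3.90, the minor spliceosomal Rnu11 at 3.60 and the telomerase RNA Terc at 2.09. In OH all 9 fell, where 27.1% of all genes were called lower. Of 48 tested snoRNA and Cajal body genes outside the set, known mainly by predicted names, 44 rose and 1 fell in 3F, where 31.6% of all genes were called higher and 34.5% lower. Their median log2 fold change was 2.42, against -0.04 over protein-coding genes. In OH against FR 40 such genes were tested. Some of the 48 could have passed the low-count filter through 3F alone, and how many did was not counted.

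Few messenger RNAs of the proteins that act with these RNAs rose. In 3F against FR, where 31.6% of all genes tested were called higher and 34.5% lower, 3 of 4 C/D core genes fell and none rose. Fbl, the methyltransferase, had a log2 fold change of -0.86 ± 0.14, Nop56 had -1.0 ± 0.12, Nop58 had -0.47, and Snu13 was not called at -0.18. Of the 4 H/ACA core genes 2 fell, Dkc1 (dyskerin) at -0.24 and Nhp2 at -0.36, while Nop10 at 0.00 and Gar1 at 0.35 were not called. Among 13 assembly factor genes 2 rose and 10 fell, with Ruvbl1 at -2.09 ± 0.18, Ruvbl2 at -1.12 and Nolc1 at -0.78, and Naf1 higher at 1.10. Of 12 tested Cajal body protein genes 6 fell and none rose, including Wrap53 at -0.69 and Coil at -0.38, and Smn1 was not called at 0.05. Of 17 genes of the small-subunit processome, the particle that contains the U3 snoRNA, 14 fell and 2 rose. The list medians were -0.66, -0.12, -0.59, -0.34 and -0.50 in that order, against -0.02 over all genes tested.

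Phenobarbital was set against control within each state to ask whether a drug response in these RNAs could be read. In frozen liver 2 of 20 tested members were lower in PB and none was higher, against 3.53% and 5.89% of all genes tested (edgeR). Snord17 had 171, 195 and 210 CPM (lowest, median and highest) in PB livers, against 211, 253 and 264 CPM in Con livers. The ranges did not overlap, with a log2 fold change of -0.38 ± 0.07 (n = 6 per group, edgeR adjusted p = 0.00247). Scarna6 had 29.3, 32 and 38.5 CPM in PB livers, against 36.1, 40.2 and 41.5 CPM in Con livers, with overlap and a log2 fold change of -0.27 ± 0.07 (edgeR adjusted p = 0.0203). Snora73b, at 115, 158 and 200 CPM in PB livers against 170, 202 and 210 CPM in Con livers, was not called (log2 fold change -0.30 ± 0.11, edgeR adjusted p = 0.107).

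**Figure D5:**
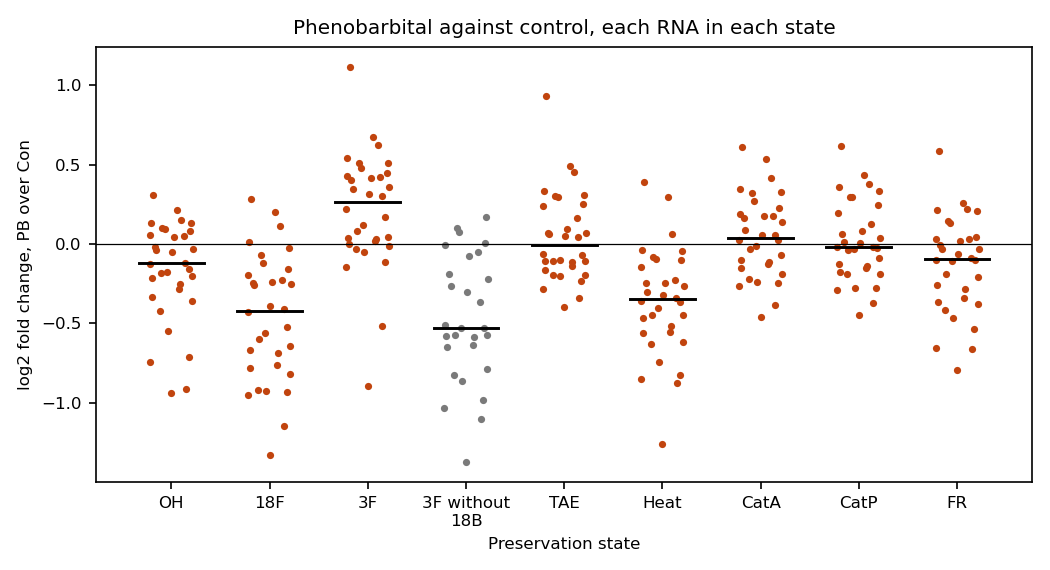
Log2 fold change of PB over Con for each RNA (points, fit without a filter) in each preservation state, with the median as a bar and 3F also drawn without mouse 18B (grey, filtered fit). Points in 3F lie mostly above 0 with mouse 18B and mostly below 0 without it.

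Neither frozen call was made by edgeR in the preserved states, while DESeq2 called Scarna6 lower in OH, Snord17 lower in CatP and Snora73b lower in OH and Heat. Snord17 had log2 fold changes of -0.15 ± 0.12 in OH, -0.08 ± 0.23 in 18F, -0.15 ± 0.67 in 3F, -0.40 ± 0.21 in TAE, -0.55 ± 0.23 in Heat, -0.09 ± 0.35 in CatA and -0.36 ± 0.12 in CatP, and whether these differ from the frozen value was not tested. The SE in 3F was the widest of the 8 states for this RNA. Scarna6 had log2 fold changes of -0.28 ± 0.09 in OH, -0.21 ± 0.11 in 18F, -0.11 ± 0.32 in 3F, -0.20 ± 0.18 in TAE, -0.33 ± 0.13 in Heat, -0.24 ± 0.09 in CatA and -0.28 ± 0.09 in CatP, all with the sign of the frozen value and from the same mice. In 3F no member of 28 was called, none had an unadjusted p under 0.05 and DESeq2 called none, against 2.1% of all genes called by edgeR. The median log2 fold change over the 28 was 0.21. It was -0.53 without PB mouse 18B, 0.40 over 30 tested without Con mouse 8A, and -0.34 without both. The direction thus changed with which of these libraries was kept. No member was called in any of these, and 5, 0 and 2 had an unadjusted p under 0.05.

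Single calls were made in 2 preserved states. Snora30, an H/ACA RNA, was lower in PB in 18F, with 0.859, 1.12 and 1.45 CPM in PB livers against 1.45, 2.13 and 3.09 CPM in Con livers (log2 fold change -0.93 ± 0.22, edgeR adjusted p = 0.0261), where 1.43% of all genes were called lower. Snora21 was lower in PB in Heat, with 1.10, 1.4 and 2.01 CPM in PB livers against 2.17, 2.68 and 2.92 CPM in Con livers (log2 fold change -0.82 ± 0.20, edgeR adjusted p = 0.0258), where 1.5% of all genes were called lower. Neither was called without the low-count filter. No member was called in OH, TAE, CatA or CatP, where 6.98%, 3.29%, 4.94% and 4.65% of all genes were called, and 3, 2, 1 and 3 members had an unadjusted p under 0.05. DESeq2 called 2, 0, 0 and 1 in those states. With each mouse's 8 libraries summed, 0 of 32 members were called by edgeR or DESeq2 and none had an unadjusted p under 0.05, against 7.44% of all genes called. The most abundant members were Snora73b and Snord17, at -0.25 ± 0.15 and -0.22 ± 0.14 on the log2 scale.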

How the data were processed

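RNA was sequenced from 96 strand-specific, rRNA-depleted liver libraries. The authors deposited raw whole-number counts per Ensembl gene, not normalized, per the file header. The submitters' processing notes list CASAVA, STAR 2.5, edgeR, GRCm38 and mm10 without roles, and neither the counting tool, its annotation nor its strand setting is named. The authors' log2 table was not used. Of 47465 lines, 92 spike-in lines (110 counts) were kept out of totals and tests, and 46954 of 47373 genes matched GENCODE M21, which gave symbols, coordinates and sequences in the GRCm38 build.

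Groups came from the titles and preservation labels. States were compared in edgeR 4.0.16 (R 4.3.3) with TMM scaling, the low-count filter by group, mouse as a block and the quasi-likelihood test, and PB with Con per state and on sums over states, with p-values adjusted over all genes at 0.05. "Tested" means past that filter. The fit without the filter gave every gene one shared spread, so its folds are printed and its counts of calls stand only among the alternatives. The mice named in the titles pair the libraries: 335 of 336 same-mouse pairs correlated above 0.1, with a median of 0.690 against -0.0537 between mice. On simulated data the test recovered 76.2% of 1.5-fold and 97.0% of 2-fold changes in 3F against FR (13333 genes), and 65.2% and 84.8% in PB against Con in FR (13793 genes). Of its calls there, 6.91% and 6.4% were false, above the 5% set. The simulation changed only a small random set of genes, up and down alike. In the real 3F against FR comparison 31.6% of genes were called higher and 34.5% lower. The simulated rates may therefore not hold there or for scarce RNAs. Replicates are separate mice.

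Members and gene lists were chosen with earlier results of these data known, so no count over them is independent support. Named were the 6 members most abundant in FR, up to 3 non-overlapping called rises and falls per comparison with FR, the called members in PB against Con, those next to the sum of 500, and up to 4 called and 2 uncalled genes per list. Members outside this rule, such as Snora57, Snora62 and Snord104, were named after their values were seen. Alternatives were DESeq2 1.42.0, RLE scaling, library totals, no filter, no mouse block, scaling without mitochondrial genes and leaving out each mouse. Figures used matplotlib 3.10.9.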

Additional observations from a re-analysis of the deposited data

Results flagged for a closer look

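The 3F library of PB mouse 18B was far above the other 5 PB mice in all classes, with sums of 3126 CPM for H/ACA RNAs (next 848), 1422 CPM for C/D RNAs (next 336) and 781 CPM for Cajal body RNAs (next 397). In 18F, Con mouse 90C had a C/D sum of 384 CPM, against 252 CPM in the next Con mouse. In TAE, PB mouse 80B had an H/ACA sum of 417 CPM, against 283 CPM in the next PB mouse. In CatP, PB mouse 18D had a Cajal body sum of 137 CPM, against 110 CPM in the next. Each was picked because its gap to the nearest mouse was large beside the range of its 6 mice. Of 48 sums checked, 6 stood out in this way, including every class of the 18B library in 3F. For separate, normally spread sums chance gives about 1 in 20. Class sums of 1 library are not separate, so 6 of 48 cannot be judged against that rate.

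Spike-in controls, which the comparisons do not use, held 96 counts in the TAE library of Con mouse 82B and 6 counts in its CatA library, above the 3 counts that a count of 0 allows. Counts above 0 were seen in 7 libraries, and intervals of this kind cover counting error only.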

How the results depend on the processing

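Of 186 alternative counts of called members, 176 lay within 1.5 times the count reported. CatA against Heat, with 5 called, had 3 with DESeq2, 3 with library totals and 0 without the mouse block. CatP against CatA, with 8 called, had 5 with DESeq2 and 2 without the block. PB against Con had 2 called with DESeq2 in OH, 2 in Heat and 1 in CatP, and 0 without the low-count filter in 18F and in Heat. Leaving out each mouse in turn gave 26 to 27 called members in 3F against FR and 0 to 0 in PB against Con on summed libraries. Leaving out mouse 18B or 8A, chosen after seeing the data, gave 22 to 26 in 3F against 18F, 23 to 23 in TAE against 3F, 25 to 25 in Heat against 3F, 27 to 27 in CatA against 3F, 25 to 26 in CatP against 3F and 0 to 0 in PB against Con in 3F. Without the replicate block, 3F against FR had 25 called, and Snord17 lost its call. Of 117 calls of single members against FR, the number lost was 9 without the pairing block, 6 with library totals, 2 with DESeq2, 1 without the filter and 0 with RLE scaling or without mitochondrial genes in the scaling. Against FR, no direction of a called member turned in the alternatives that kept all mice, and the cause of each lost call was not tested. Turned directions in the other comparisons, and with mice left out, were not counted. Counts in 3F, down to 1264563 per library, limit the scarce RNAs most.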

Other observations

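The RNAs of the RNase P and MRP complexes had high levels in both 3F and FR. Rpph1, the RNA of RNase P, which trims tRNA precursors, had a median of 5989 CPM in 3F (3948 to 11417), against 3386 CPM in FR (2972 to 3573). Rmrp, the RNA of RNase MRP, which cuts the ribosomal precursor, had 1733 CPM in 3F (919 to 5542), against 1229 CPM in FR (932 to 1413). Mouse 18B had the highest 3F level of each, as it had for 28 of the 32 snoRNAs and Cajal body RNAs. In 3F against FR the log2 fold changes were 0.83 for Rpph1 and 0.57 for Rmrp.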
